A study of Homo sapiens with 4 samples.

Results

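Immune checkpoint ligands are molecules that tumour cells show to T cells, natural killer (NK) cells and macrophages and that restrain an immune attack. They were described here as 10 genes of 29437 listed, chosen by name: CD274, PDCD1LG2, CD276, VTCN1, CD47, PVR, NECTIN2, TNFRSF14, LGALS9 and NT5E. Polyadenylated RNA of CAL27, a cell line from a human oral squamous cell carcinoma, was sequenced in 4 libraries, 2 labelled as negative control and 2 labelled as overexpressing the chemokine CCL20. A lentivirus was used to make the overexpression line and cells were collected after 48 hours, per the labels' protocols, and the comparison asks which genes differ when CCL20 is overexpressed. What the negative control cells carried is not stated in the labels, and no other genotype or treatment is named for either group. Whether the replicates of a group were separate cultures is not stated either, so the p-values measure the spread between these libraries, which may be technical.

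As background, CD274 encodes PD-L1 and PDCD1LG2 encodes PD-L2, the ligands of the T cell receptor PD-1. CD47 binds SIRPA on macrophages and signals against engulfment. PVR and NECTIN2 share the inhibitory receptor TIGIT and the activating receptor CD226, while NT5E, also called CD73, makes adenosine outside the cell, which dampens T cells. Squamous carcinomas can show PD-L1 from their own signalling or in response to interferon gamma, which acts through the kinases JAK1 and JAK2 and the factor IRF1.

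The promoter of CD274 carries letters through which interferon signalling is known to act, and it is shown with that of LGALS9 because genes of the interferon route are described further on. Both come from RefSeq (GRCh38.p14) and run from 250 bases before to 50 after the annotated start, at chr9:5450292-5450591 for CD274 and chr17:27630938-27631237 for LGALS9, plus strand in each. Capitals mark matches, on either strand, to the interferon-stimulated response element (GAAA, any 2 bases, GAAA) or to the gamma-activated site (TTC, any 3 bases, GAA).
CD274: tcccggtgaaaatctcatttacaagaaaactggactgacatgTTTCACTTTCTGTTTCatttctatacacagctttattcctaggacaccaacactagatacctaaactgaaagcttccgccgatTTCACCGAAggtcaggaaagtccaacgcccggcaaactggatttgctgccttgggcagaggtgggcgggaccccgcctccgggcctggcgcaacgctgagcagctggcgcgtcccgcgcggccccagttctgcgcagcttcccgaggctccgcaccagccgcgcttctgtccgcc
LGALS9: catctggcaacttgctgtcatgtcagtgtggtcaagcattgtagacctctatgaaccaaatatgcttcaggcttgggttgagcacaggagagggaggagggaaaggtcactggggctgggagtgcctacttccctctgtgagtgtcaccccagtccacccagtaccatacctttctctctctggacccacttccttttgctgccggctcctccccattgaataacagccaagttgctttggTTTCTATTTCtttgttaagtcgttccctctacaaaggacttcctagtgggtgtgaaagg
In CD274 there were 2 overlapping matches to the first motif, at bases 43 to 52 and 49 to 58 of the window, and 1 match to the second at bases 126 to 134. LGALS9 had 1 match to the first motif, at bases 242 to 251. Of the 10 genes 9 had a promoter in the table, and the interferon-stimulated response element was found in these 2 of the 9 and in 3.57% of 35116 promoters of the same length. The gamma-activated site was found in CD274 alone among the 9 and in 7.66% of all promoters. A hypoxia response element core, ACGTG, stood in CD47 and CD276, against 21.4% of all promoters, and the kappaB letters (GGGA, any 2 bases, TTCC) in 0 of the 9 and 1.61% of all. The 9 are counted as genes, with CD276 counted if any of its promoters matched, while the percentages count promoters. A match describes the letters and says nothing of binding.

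Total gene counts lay between 13681862 and 17860695 per library. The study's target CCL20 was at 8.62 and 7.10 FPKM in the controls and 15.2 and 11.3 FPKM with overexpression (log2 fold change 0.95, SE 0.21, edgeR adjusted p = 0.0143), where FPKM is the count scaled by exonic length and library total. Log2 fold changes followed mRNA length, with a Spearman correlation of -0.734 across 10571 tested coding genes, which share these 4 libraries, so no p is given. After a correction for mRNA length, fitted as a smooth trend in each library, CCL20 was at 0.057 (edgeR adjusted p = 0.916). The tested checkpoint genes are therefore given with their mRNA length and a corrected value. Of 8 squamous epithelium markers, 7 had a mean of at least 1 FPKM, led by KRT5 at 362 to 521 FPKM, while KRT14, a basal keratin, was at 0.712 to 1.11 FPKM. Leukocyte markers summed to 5.48 to 7.24 FPKM with overexpression and 8.22 to 8.85 FPKM in the controls. Of 12 listed, 9 had a value, and 3 of these had a mean of at least 1 FPKM. ITGAX was the highest. The others, named after their values were seen, were CSF1R at 1.68 to 2.98 FPKM and CD14 at 1.05 to 1.73 FPKM. The defining marker PTPRC was at 0 in 3 libraries. Fibroblast markers summed to 2.97 to 3.51 against 4.74 to 5.58 FPKM, with COL1A1 highest and DCN, the lowest, at 0 in 3 libraries. PDGFRB, named after its value was seen, was at 0.573 to 1.22 FPKM. Endothelial markers summed to 5.40 to 5.53 against 8.56 to 9.01 FPKM, nearly all from CDH5, with PECAM1 at 0 in both controls. These 3 sums were lower with overexpression, as was the median FPKM of all tested genes. Their highest genes, ITGAX, COL1A1 and CDH5, have mRNAs of 4703, 6727 and 4123 nt. Corrected for mRNA length, these genes were at log2 fold changes of -0.0026, 0.097 and -0.22 (edgeR adjusted p from 0.460 to 0.996). The part of the sums in the results was not tested.

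The levels of the 10 genes fell into separate ranges, as the plot of FPKM by gene shows. NT5E and CD47 were highest, at 33.1 to 50.7 FPKM over the 4 libraries, followed by PVR, CD276 and NECTIN2 at 17.7 to 30.5 FPKM. CD274 lay at 2.96 to 4.32 FPKM. TNFRSF14, PDCD1LG2 and LGALS9 lay between 0.576 and 1.83 FPKM, and VTCN1 was lowest. NT5E and CD47 made up 46.0% to 55.0% of the summed FPKM of the 10 genes, PVR, NECTIN2 and CD276 40.2% to 48.6%, and the other 5 genes 4.21% to 5.46%. Among tested coding genes ranked by control FPKM, NT5E stood at the percentile of 92.6, CD47 at 92.0, PVR at 86.3, CD276 at 83.9, NECTIN2 at 83.2 and CD274 at 27.8. PDCD1LG2 stood at 4.42, TNFRSF14 at 2.43 and LGALS9 at 0.378. In the controls each gene's range stood clear of the next in order except CD276 and NECTIN2. With overexpression the ranges overlapped for CD47 with NT5E, for PVR with CD276, for LGALS9 with TNFRSF14 and for TNFRSF14 with PDCD1LG2. FPKM here divides by all annotated exonic bases of a gene. For CD47 that is 8225 nt against 5225 nt for its longest coding transcript, so its level relative to the others depends on that length. For TNFRSF14 it is 6219 nt against 1707 nt, and for CD274 4108 nt against 3644 nt, so the place of TNFRSF14 under CD274 depends on it too. The same holds for the order of NECTIN2, with 3747 nt against 2466 nt, and PVR, with 3519 nt against 3325 nt.

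**Figure D1:**
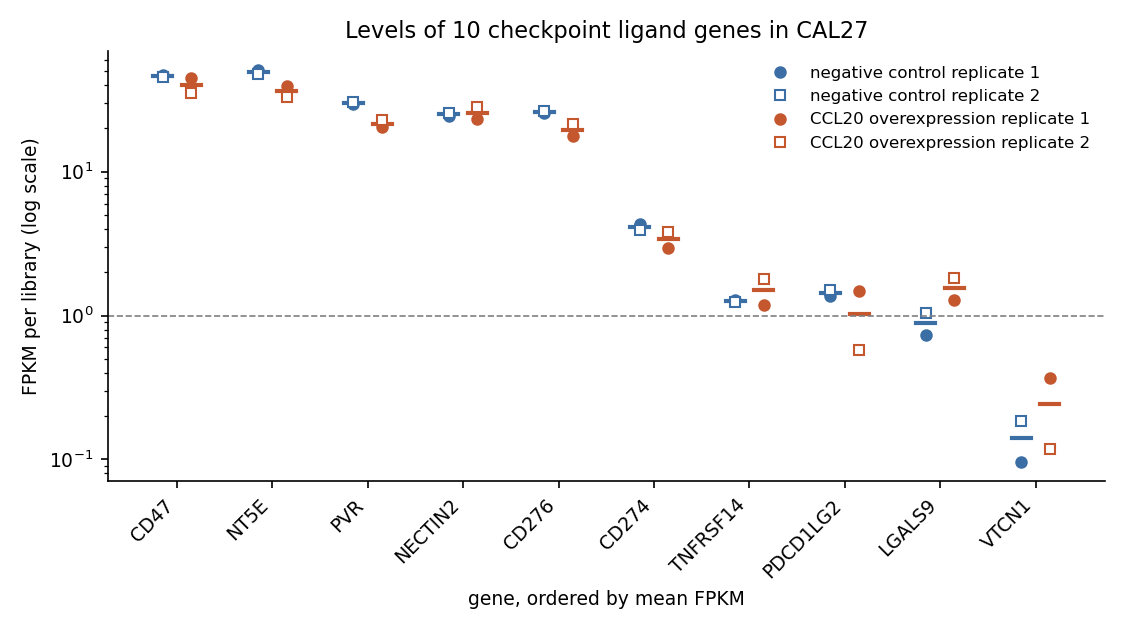
FPKM (log scale) of each of the 10 genes in the 2 negative control and the 2 CCL20-overexpression libraries; bars mark group means and the dashed line is at 1 FPKM, the mean a gene needed to be tested. NT5E and CD47 sit between 33.1 and 50.7 FPKM and VTCN1 is at or under 0.366 FPKM in every library.

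Between the groups, 1 of the 9 tested checkpoint genes passed the threshold of an adjusted p under 0.05, LGALS9, which was higher with CCL20 overexpression. Its control mean, 0.884 FPKM, lay under the 1 FPKM needed, so LGALS9 was tested only through its overexpression libraries. With no filter on low values LGALS9 also passed (edgeR adjusted p = 0.00169). Among all 12168 tested genes 32.2% passed, 16.5% higher and 15.7% lower. The median log2 fold change of the 9 genes was -0.068, against 0.0019 for all tested genes. Corrected for principal mRNA length, 0 of the 9 passed in edgeR, against 6.82% of 10571 coding genes (3.63% higher and 3.19% lower), and the median was -0.032 against 0.025. LGALS9 and CD47 came nearest to the threshold with that correction (edgeR adjusted p = 0.0713 and 0.0586). Corrected for exonic length 1 passed, LGALS9, against 15.9% of all genes, and for the longest coding transcript 0, against 7.17%. These counts rest on few libraries. Leaving out either control lowered them and leaving out either overexpression library raised them, for the checkpoint genes and for all tested genes alike. In bulk RNA, fewer cells that express a gene and less RNA per cell cannot be told apart.

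**Figure D2:**
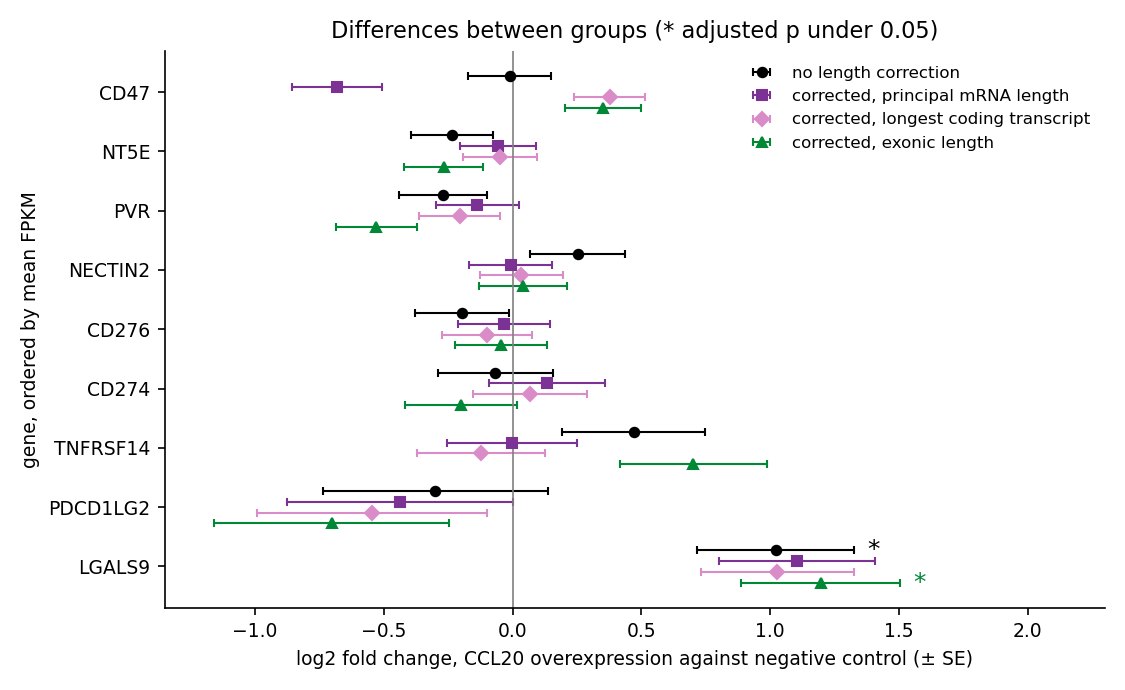
Log2 fold change (x axis, with its SE) of the 9 tested checkpoint genes with CCL20 overexpression, from edgeR without a length correction and with corrections for 3 kinds of length; an asterisk marks an adjusted p under 0.05. LGALS9 lies at 1.02 to 1.20 in all 4 fits and passed in 2 of them, and CD47 moves from -0.68 to 0.38 with the length chosen.

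**Figure D3:**
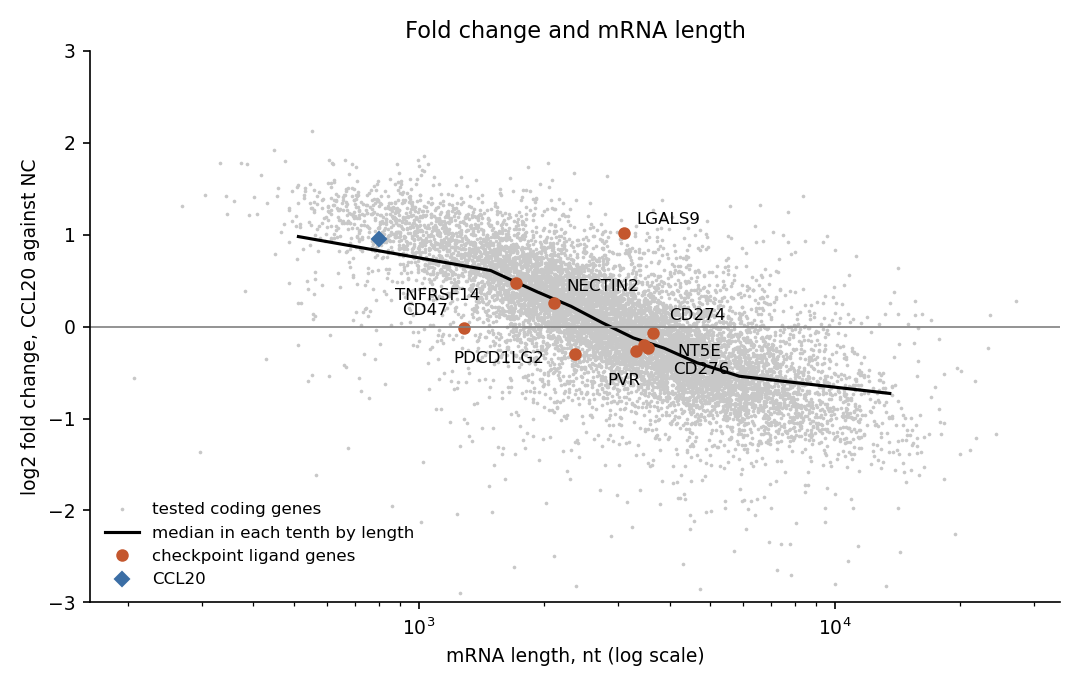
Log2 fold change (y axis, cut at -3 and 3) against principal mRNA length (x axis, nt, log scale) for 10571 tested coding genes in grey, with a line through the medians of 10 length classes, the 9 checkpoint genes as circles and CCL20 as a diamond. LGALS9, with 3114 nt and 1.02, lies above the line, and CD47, placed at 1285 nt, and PDCD1LG2 lie below it.

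LGALS9 (ENSG00000168961, GRCh38 chr17:27629798-27649560, plus strand) encodes galectin-9, a sugar-binding protein known as a ligand of the T cell receptor HAVCR2. Its counts were 57 and 106 in the controls against 113 and 176 with overexpression, or 0.729 and 1.04 FPKM in the controls and 1.29 and 1.83 FPKM with overexpression. Both overexpression libraries were above both controls, though the libraries of each group also differed from each other, at 0.884 ± 0.219 and 1.56 ± 0.380 FPKM (SD, n = 2 each). LGALS9 rose 2.03-fold, an edgeR log2 fold change of 1.02 (SE 0.31, adjusted p = 0.0367). Its principal mRNA is 3114 nt, near the median of 2998 nt over tested coding genes, and correcting for mRNA length left the estimate at 1.10 (SE 0.30), no longer past the threshold (edgeR adjusted p = 0.0713). Nor did it pass without control replicate 1 (0.79, edgeR adjusted p = 0.291) or without control replicate 2 (1.31, edgeR adjusted p = 0.0642). Without overexpression replicate 2 the estimate was 0.68, and without overexpression replicate 1 it was 1.28. With 1 library left in a group, that library is assumed to vary like the other pair. Fits without an overexpression library thus rest on the control pair, which varied less, and only their estimates are given for single genes.

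LGALS9 has near-identical copies, LGALS9B and LGALS9C, and its count depends on how reads that fit several of them were assigned, which the labels do not state. The first 150 coding bases of the principal transcripts in GENCODE 29 are shown for that reason, with capitals where a copy differs from LGALS9.
LGALS9: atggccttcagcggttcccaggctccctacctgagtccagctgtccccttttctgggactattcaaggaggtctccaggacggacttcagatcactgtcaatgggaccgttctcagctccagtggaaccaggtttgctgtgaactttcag
LGALS9B: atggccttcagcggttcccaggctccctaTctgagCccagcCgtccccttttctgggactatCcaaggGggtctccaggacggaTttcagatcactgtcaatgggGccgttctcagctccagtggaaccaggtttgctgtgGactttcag
LGALS9C: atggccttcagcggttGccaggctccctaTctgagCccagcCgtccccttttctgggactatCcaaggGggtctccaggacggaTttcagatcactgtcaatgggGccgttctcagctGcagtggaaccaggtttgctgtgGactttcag
In this stretch LGALS9B differed from LGALS9 at 8 bases and LGALS9C at 10. Over the whole coding sequence the identity with LGALS9 was 96.3% for LGALS9B and 95.9% for LGALS9C, and 99.5% between the copies. Of the 50-base stretches in annotated LGALS9 transcripts, 13.2% also occur in another gene. Besides the copies, AC015688.4, a coding gene on the same strand, shares 294 exonic bases with LGALS9, 5.1% of the exons of LGALS9. LGALS9B was at 1.09 and 1.91 FPKM in the controls and 1.15 and 1.73 FPKM with overexpression, which overlap (log2 fold change 0.14, SE 0.38, edgeR adjusted p = 0.796). LGALS9C had 8 and 13 counts against 26 and 33 and was under the level tested. With the 3 genes summed, the counts were 105 and 210 in the controls and 186 and 287 with overexpression, and the difference missed the threshold (log2 fold change 0.79, edgeR adjusted p = 0.0691). LGALS9 held 54.3% and 50.5% of those counts in the controls and 60.8% and 61.3% with overexpression.

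The PD-1 ligands did not pass the test. CD274 (ENSG00000120217, chr9:5450503-5470566, plus strand, principal mRNA 3644 nt) was at 4.32 and 3.91 FPKM in the controls and 2.96 and 3.81 FPKM with overexpression. On that scale both overexpression libraries were below both controls, and replicate 2 only narrowly so. On counts scaled by the trimmed mean of M values (TMM), the scale of the test, the groups overlapped, and the log2 fold change was -0.068 (SE 0.22, edgeR adjusted p = 0.833), or 0.13 corrected for mRNA length. PDCD1LG2 (ENSG00000197646, chr9:5510570-5571254, plus strand, mRNA 2365 nt) had 44 and 64 counts in the controls and 54 and 23 with overexpression, or 1.36 and 1.52 FPKM in the controls and 1.49 and 0.576 FPKM with overexpression. Overexpression replicate 1 lay among the controls and replicate 2 well below them. Its log2 fold change was -0.30 (SE 0.44, edgeR adjusted p = 0.613). It was 0.20 without overexpression replicate 2 and -1.07 without replicate 1, so its sign rested on 1 library. Corrected for mRNA length it was -0.44 (edgeR adjusted p = 0.596). The FPKM ratio of CD274 to PDCD1LG2 was 3.18 and 2.58 in the controls and 1.99 and 6.61 with overexpression, with overlap between the groups.

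CD274 and PDCD1LG2 are neighbours on chromosome 9, and the nearest tested coding genes on each side were read with them. Before CD274, PLGRKT, a plasminogen receptor, was higher with overexpression (log2 fold change 1.15, edgeR adjusted p = 0.00772, mRNA 932 nt), as was RLN2, a relaxin (1.44, edgeR adjusted p = 0.0387, mRNA 1177 nt). After PDCD1LG2, RIC1 was lower (-0.76, edgeR adjusted p = 0.0147, mRNA 6774 nt), as was ERMP1 (-1.01, edgeR adjusted p = 0.0158, mRNA 5376 nt). Corrected for mRNA length, the 4 neighbours were at 0.31, 0.71, -0.17 and -0.56 in that order, with edgeR adjusted p from 0.146 to 0.576. The neighbours with short mRNAs were thus the higher ones and those with long mRNAs the lower ones.

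The other B7 family members were CD276 and VTCN1. CD276, or B7-H3, a surface protein found on many carcinomas (ENSG00000103855, chr15:73683966-73714518, plus strand, principal mRNA 3469 nt), was at 25.5 and 26.5 FPKM in the controls and 17.7 and 21.5 FPKM with overexpression. It was lower in both overexpression libraries on the FPKM scale, whereas TMM-scaled CPM was 133 and 139 against 103 and 134 and overlapped. The log2 fold change was -0.20 (SE 0.18, edgeR adjusted p = 0.423), and -0.032 corrected for mRNA length. Without overexpression replicate 2 it was -0.39, and without replicate 1 it was -0.026. VTCN1, or B7-H4 (ENSG00000134258, chr1:117143587-117210960, minus strand, principal mRNA 2612 nt), had 4 and 10 counts in the controls and 17 and 6 with overexpression, and was not tested. The exact 95% Poisson intervals, which cover counting error only, ran from 1.09 to 10.2 and 4.80 to 18.4 counts in the controls and from 9.90 to 27.2 and 2.20 to 13.1 with overexpression. Overexpression replicate 2 lay between the controls.

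PVR and NECTIN2, adhesion proteins of the nectin family, had estimates of opposite sign, neither past the threshold. PVR, also known as CD155 (ENSG00000073008, chr19:44643798-44663583, plus strand, principal mRNA 3325 nt), was at 29.8 and 30.5 FPKM in the controls and 20.5 and 22.7 FPKM with overexpression, with a gap between the groups on both scales. Its log2 fold change was -0.27 (SE 0.17, edgeR adjusted p = 0.242), -0.14 corrected for mRNA length and -0.53 for exonic length (edgeR adjusted p = 0.656 and 0.0571). Without overexpression replicate 2 it was -0.40, and without replicate 1 it was -0.16. NECTIN2, or CD112 (ENSG00000130202, chr19:44846175-44889228, plus strand, principal mRNA 2112 nt), was at 24.3 and 25.7 FPKM in the controls and 23.3 and 28.2 FPKM with overexpression, which overlap. On TMM-scaled CPM its overexpression libraries, at 91.5 and 119, were above the controls at 85.4 and 91.0. The log2 fold change was 0.25 (SE 0.18, edgeR adjusted p = 0.311) and -0.0079 corrected for mRNA length. Without overexpression replicate 1 it was 0.42, and without replicate 2 it was 0.056. The FPKM ratio of NECTIN2 to PVR was 0.815 and 0.844 in the controls and 1.14 and 1.24 with overexpression. On that scale PVR was the higher of the pair in both controls and NECTIN2 in both overexpression libraries. FPKM divides by exonic lengths of 3747 nt for NECTIN2 and 3519 nt for PVR, so which was higher depends on the length used. An exact two-sided permutation test gave p = 0.333 for this ratio and p = 1 for that of the PD-1 ligands (adjusted over these 2 ratios 0.667 and 1), and 0.333 is the smallest p that 2 libraries against 2 allow. The ratio sets an mRNA of 2112 nt against one of 3325 nt in libraries that differ by length, and the part of length in it was not tested.

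Around them on chromosome 19, 0 of the 8 nearest tested coding genes passed in edgeR at an adjusted p under 0.05, against 32.2% of all tested genes. CBLC and TOMM40 came nearest to the threshold (edgeR adjusted p = 0.0584 and 0.0842). Beside PVR the neighbours were ZNF180, ZNF112, CEACAM19 and BCL3, with log2 fold changes of 0.077, -0.013, 0.22 and 0.24. Beside NECTIN2 they were CBLC, BCAM, TOMM40 and CLPTM1, with log2 fold changes of 0.72, 0.093, 0.63 and 0.044. CEACAM19 shares 121 exonic bases with PVR, 3.44% of the exons of PVR, and was at 0.915 to 1.12 FPKM.

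CD47 (ENSG00000196776, chr3:108043094-108091862, minus strand) was at 47.2 and 45.4 FPKM in the controls and 44.6 and 35.4 FPKM with overexpression. Replicate 1 of the overexpression group was just below the lower control and replicate 2 clearly below. TMM-scaled CPM of 365 and 353 against 384 and 328 overlapped, and the log2 fold change was -0.011 (SE 0.16, edgeR adjusted p = 0.963). The corrected value turned on which length was used for this gene. With the principal transcript of 1285 nt it was -0.68 (SE 0.17, edgeR adjusted p = 0.0586), with the longest coding transcript of 5225 nt it was 0.38 (SE 0.14, edgeR adjusted p = 0.149), and with the exonic length it was 0.35 (SE 0.15, edgeR adjusted p = 0.136). These tables do not tell which CD47 transcript the cells used.

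Genes that act on CD47 or its partners were read as a list of 9, of which 7 were tested. Of these 0 were higher and 3 were lower, against 16.5% and 15.7% of all tested genes. The median log2 fold change of the 7 was -0.22, on mRNAs whose median length is 4118 nt. QPCTL, the enzyme that forms the CD47 end bound by SIRPA, was at 11.3 and 11.5 FPKM in the controls and 11.9 and 15.3 FPKM with overexpression (log2 fold change 0.47, SE 0.21, edgeR adjusted p = 0.119). LRP1, a receptor for calreticulin, fell by 1.12 on the log2 scale, ITGAV, an integrin chain, fell by 0.95, and THBS1, a secreted ligand of CD47, fell by 0.77 (edgeR adjusted p = 0.00762, 0.0300 and 0.0208). Their mRNAs are 7030 to 14897 nt long, and corrected for mRNA length the 3 genes did not pass (edgeR adjusted p from 0.385 to 0.697). CALR, the gene of calreticulin and the highest of the list, was at 191 to 217 FPKM (log2 fold change 0.036, SE 0.15, edgeR adjusted p = 0.870). SIRPA, the receptor itself, was at 7.21 and 7.11 FPKM in the controls and 5.15 and 5.19 FPKM with overexpression (log2 fold change -0.26, SE 0.17, edgeR adjusted p = 0.267), and 0.0043 corrected for mRNA length.

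NT5E (ENSG00000135318, chr6:85449584-85495791, plus strand, principal mRNA 3548 nt) was at 50.7 and 47.5 FPKM in the controls and 39.5 and 33.1 FPKM with overexpression. Both overexpression libraries were below both controls on the FPKM scale and on TMM-scaled CPM. The log2 fold change was -0.23 (SE 0.16, edgeR adjusted p = 0.279), and -0.056 corrected for mRNA length. Without overexpression replicate 1 it was -0.32, and without replicate 2 it was -0.16. Its substrate AMP can be made outside cells by ENTPD1, also called CD39, which was at 0.534 to 0.682 FPKM, under the level tested. Of 15 genes of the adenosine pathway 11 were tested, with a median of 0.064. Of the 11, 3 were higher and 1 was lower, against 16.5% and 15.7% of all tested genes. ADA, adenosine deaminase, rose with a log2 fold change of 0.76, ADK, adenosine kinase, with 0.63, and PNP, a purine nucleoside phosphorylase, with 0.49 (edgeR adjusted p = 0.0191, 0.0344 and 0.0475), on mRNAs of 1169 to 1539 nt. Corrected for mRNA length these 3 did not pass (edgeR adjusted p from 0.494 to 0.825). NT5C2, a nucleotidase inside the cell, was at 6.96 and 5.99 FPKM in the controls and 2.06 and 1.24 FPKM with overexpression. NT5C2 fell 3.43-fold, a log2 fold change of -1.78 (SE 0.25, edgeR adjusted p = 0.00440), and stayed past the threshold when corrected (-1.63, edgeR adjusted p = 0.0123).

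TNFRSF14, or HVEM, is a receptor on tumour and immune cells that engages the inhibitory receptor BTLA (ENSG00000157873, chr1:2555639-2565382, plus strand, principal mRNA 1707 nt). It was at 1.28 and 1.23 FPKM in the controls and 1.19 and 1.80 FPKM with overexpression, with replicate 2 alone above the controls. The log2 fold change was 0.47 (SE 0.28, edgeR adjusted p = 0.220), -0.0022 corrected for mRNA length and 0.70 for exonic length, in which the gene counts as 6219 nt. Without overexpression replicate 1 it was 0.77, and without replicate 2 it was 0.084. An antisense gene, TNFRSF14-AS1, covers 13.4% of its exonic bases and had 0 to 5 counts per library.

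Groups did not overlap on TMM-scaled CPM for 5 of the 9 tested checkpoint genes, against 71.6% of all tested genes. NECTIN2, TNFRSF14 and LGALS9 were above the controls on that scale and PVR and NT5E below, against 35.8% of all genes above and 35.8% below. On the FPKM scale the groups did not overlap for 6 of the 9, against 72.7% of all: LGALS9 above, and CD274, CD276, CD47, PVR and NT5E below, against 25.8% and 46.9% of all. The summed FPKM of the 10 genes was 185 and 184 in the controls and 153 and 149 with overexpression. The median FPKM of all tested genes was also lower with overexpression, at 5.75 and 5.33 against 6.75 and 6.69.

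Of 15 receptors and partners of these ligands on immune cells, 11 had a value and 1, SIRPA, reached the level tested. PDCD1, the gene of PD-1, was at 0.0308 to 0.138 FPKM, TIGIT at 0 to 0.0240 FPKM and BTLA at 0 to 0.0757 FPKM. TNFSF14, the highest of those not tested, was at 0.491 to 1.30 FPKM, and HAVCR2 had no value. These genes were chosen after their values were seen.

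Of the route from interferon gamma to CD274, 12 of 13 genes were tested, with a median log2 fold change of -0.32. Of the 12, 0 were higher and 4 were lower, against 16.5% and 15.7% of all tested genes. Taken in either direction, the 4 were near the 32.2% called among all tested genes. JAK2 was at 2.65 and 2.44 FPKM in the controls and 1.25 and 0.634 FPKM with overexpression, a fall of 1.25 on the log2 scale (-1.25, SE 0.30, edgeR adjusted p = 0.0168). JAK1 and STAT2 fell by 0.71 and 0.63 on that scale (edgeR adjusted p = 0.0173 and 0.0208). The fourth was STAT3, which transmits cytokine signals and was named after its value was seen (-0.55, edgeR adjusted p = 0.0298). IFNGR1, a receptor chain, was at 32.4 and 32.8 FPKM in the controls and 35.0 and 27.8 FPKM with overexpression (log2 fold change 0.15, SE 0.17, edgeR adjusted p = 0.515). IRF1, a factor that binds the response element printed above, was at 5.51 and 6.18 FPKM in the controls and 6.93 and 6.50 FPKM with overexpression (log2 fold change 0.40, SE 0.17, edgeR adjusted p = 0.0948). The 4 lower genes have mRNAs of 3259 to 5285 nt. Corrected for mRNA length 0 of the 12 passed in edgeR (JAK2 -0.80, edgeR adjusted p = 0.118), against 6.82% of all tested coding genes. Nearest to the threshold with that correction were STAT2, JAK2, PTPN2 and IRF1 (edgeR adjusted p = 0.0845, 0.118, 0.138 and 0.162). Corrected for exonic length 2 were higher, IRF1 at 0.74 (edgeR adjusted p = 0.0249) and PTPN2, a phosphatase, at 0.66 (edgeR adjusted p = 0.0294). With that correction 1 was lower, JAK2 at -1.03 (edgeR adjusted p = 0.0471), and 15.9% of all tested genes passed.

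Among genes that handle the PD-L1 protein, all 16 were tested, with a median of -0.27. Of the 16, 2 were higher and 2 were lower, against 16.5% and 15.7% of all tested genes. USP22, a deubiquitinase reported to stabilise PD-L1, was at 31.8 and 30.1 FPKM in the controls and 12.2 and 9.52 FPKM with overexpression. USP22 fell by 1.31 on the log2 scale (-1.31, SE 0.17, edgeR adjusted p = 0.00433), and on its mRNA of 5220 nt the corrected value was -0.86 and past the threshold (edgeR adjusted p = 0.0176). CMTM4, which protects PD-L1 from degradation together with CMTM6, was at 10.8 and 9.64 FPKM in the controls and 4.95 and 3.73 FPKM with overexpression. It fell (log2 fold change -1.04, SE 0.18, edgeR adjusted p = 0.00655), and stood at -1.76 corrected by its principal transcript of 1187 nt and -0.95 by its longest of 3414 nt. CMTM6 was at 21.1 and 16.5 FPKM in the controls and 18.7 and 10.1 FPKM with overexpression, which overlap (log2 fold change -0.20, SE 0.26, edgeR adjusted p = 0.588). TRAPPC4, a trafficking subunit, rose (0.95, edgeR adjusted p = 0.0104), as did COPS5, a signalosome subunit named after its value was seen (0.52, edgeR adjusted p = 0.0463). Corrected for mRNA length neither passed (edgeR adjusted p = 0.166 and 0.898). For exonic length both did, TRAPPC4 at 1.04 and COPS5 at 0.86 (edgeR adjusted p = 0.0149 and 0.0150). STT3B, a catalytic subunit that adds N-glycans and the highest of the list by the mean of all 4 libraries, was at -0.46 (edgeR adjusted p = 0.125). When corrected for mRNA length, 3 genes of the list were lower, USP22, CMTM4 and GSK3B, against 3.19% of all tested coding genes. GSK3B, named after its values were seen, was at -0.93 with its principal transcript of 1636 nt (edgeR adjusted p = 0.0161) and 0.17 with its longest of 7711 nt.

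In the list of further B7, nectin, galectin and tumour necrosis factor family ligands 13 of 22 were tested. Of the 13, 4 were higher and 0 were lower, against 16.5% and 15.7% of all tested genes. The median log2 fold change was 0.41, on mRNAs whose median length is 2180 nt. LGALS1, galectin-1, was at 99.6 and 97.9 FPKM in the controls and 189 and 285 FPKM with overexpression (log2 fold change 1.48, SE 0.24, edgeR adjusted p = 0.00533), on an mRNA of 560 nt. LGALS3, galectin-3, and CD24, a ligand of SIGLEC10, rose with log2 fold changes of 0.65 and 0.64 (edgeR adjusted p = 0.0272 and 0.0340). The fourth was CD70, a ligand of CD27, named after its value was seen (0.89, edgeR adjusted p = 0.0468). HMGB1, a nuclear protein that binds HAVCR2 when released, was at 75.6 to 99.9 FPKM (log2 fold change 0.41, SE 0.16, edgeR adjusted p = 0.0802). Corrected for mRNA length 0 of the 13 passed in edgeR, against 6.82% of all tested coding genes. VSIR, named after its value was seen, and HMGB1 came nearest to the threshold with that correction (edgeR adjusted p = 0.0533 and 0.0736). LGALS1 was then at 0.45 (edgeR adjusted p = 0.174). For exonic length 2 passed, LGALS1 at 1.02 and HMGB1 at 0.74 (edgeR adjusted p = 0.0186 and 0.0177), against 15.9% of all tested genes.

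Of 11 ligands of natural killer cell receptors 9 were tested, with a median of -0.16. Of the 9, 2 were higher and 1 was lower, against 16.5% and 15.7% of all tested genes. ULBP3, a stress ligand of the activating receptor NKG2D, was at 8.58 and 7.48 FPKM in the controls and 2.44 and 1.20 FPKM with overexpression, on 37 and 20 counts in the latter. ULBP3 fell 3.86-fold, a log2 fold change of -1.95 (SE 0.35, edgeR adjusted p = 0.00704). Its mRNA of 862 nt lies in the length class of 207 to 1271 nt, whose median log2 fold change was 0.98, and the corrected value was -2.82 (edgeR adjusted p = 0.00983). ULBP2 and MICA, ligands of the same receptor, rose with log2 fold changes of 0.65 and 0.60 (edgeR adjusted p = 0.0217 and 0.0342) and were at 0.0065 and -0.031 when corrected (edgeR adjusted p = 0.987 and 0.930). HLA-E, which binds the inhibitory receptor NKG2A, was at 85.0 and 93.8 FPKM in the controls and 93.6 and 119 FPKM with overexpression (log2 fold change 0.46, SE 0.19, edgeR adjusted p = 0.0973).

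**Figure D4:**
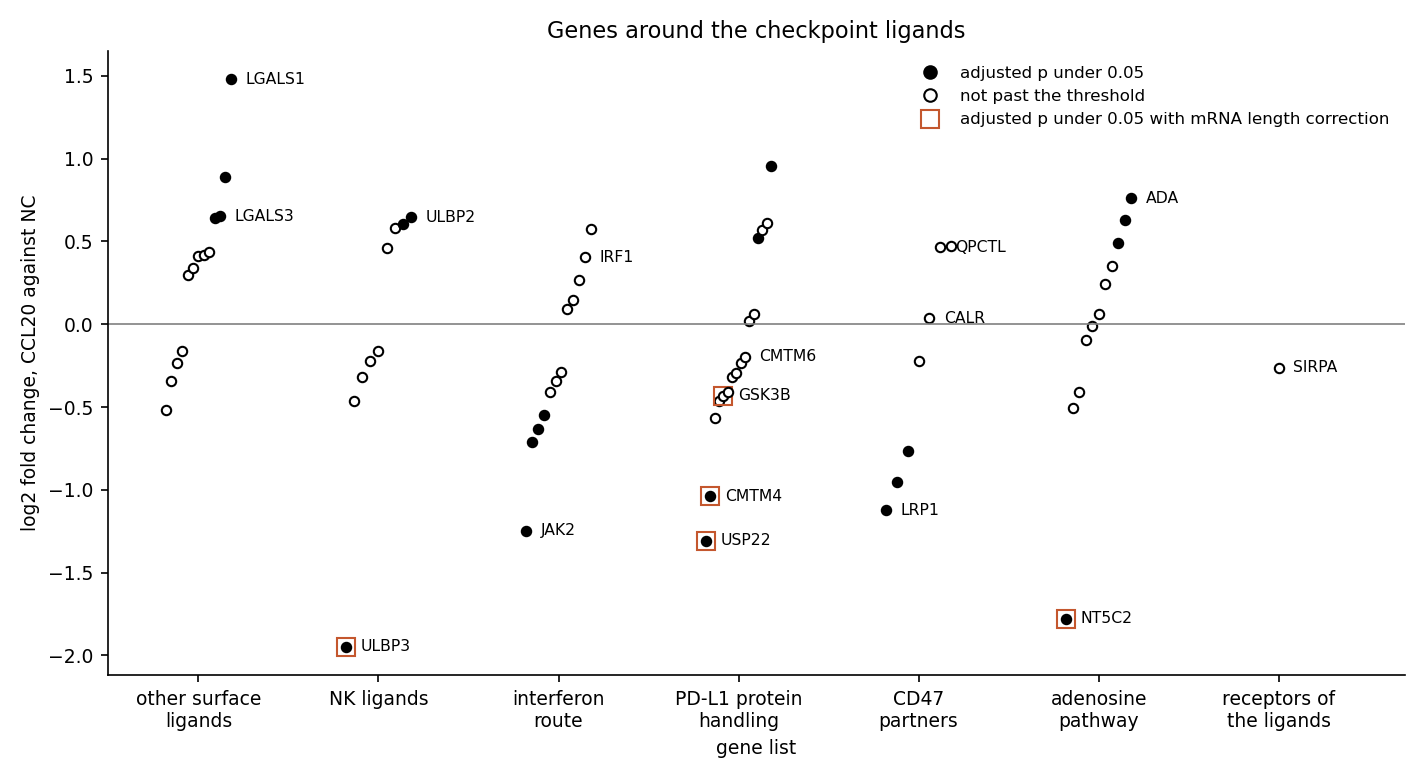
Log2 fold change (y axis) of each tested gene in 7 lists of genes around the checkpoint ligands (x axis); filled points passed an adjusted p under 0.05, open points did not, and squares mark genes that passed when corrected for mRNA length. USP22, CMTM4, NT5C2 and ULBP3, at -1.04 to -1.95, carry both marks, and GSK3B the square alone.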

How the data were processed

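Polyadenylated RNA from 4 CAL27 libraries, made from 1.5 µg of RNA each, was measured, and groups come from the labels. HISAT2, HTSeq 0.13.5 and the build GRCh38 are named in the submitters' processing notes. Their annotation and strand setting are unknown here, and reads of a gene and its antisense partner may not be separated. In the count tables deposited by the authors each value is a whole number of reads. The FPKM values deposited by the authors equal count over gene length and library total, with whole-number lengths within 0.001 nt for all 29437 genes, and 99.7% of these equal the union exon length in GENCODE 29.

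The main test was edgeR 4.0.16 in R 4.3.3: quasi-likelihood, TMM factors, two-sided, Benjamini-Hochberg adjustment over the 12168 genes at a mean of at least 1 FPKM, threshold 0.05. limma 3.58.1, DESeq2 1.42.0, other scalings and filters, leaving out each library and a replicate block were alternatives. The length corrections fit a spline with 5 degrees of freedom to each library's deviation in log2 CPM (prior count 2) and use it as an offset. The fits were tested on simulated data. Promoters came from RefSeq, and coding sequences were aligned with Biopython 1.88.

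Members, lists and length corrections were chosen with earlier results of these data known. The genes named are the 10 members, CCL20, up to 3 called genes with the largest F and the 2 highest genes of each list, 6 genes named whatever their values, 2 neighbours on each side of a locus, and the highest gene of each marker list. A single gene covered by this rule is left out of the text. Outside this rule, genes are marked as chosen after their values were seen, and defining markers and the copies and overlapping genes of members are given as context. Libraries of a group differed by more than counting noise (chi-square per gene 7.08 for the controls, 42.5 for overexpression), so none was treated as a second deposit of another, which does not show that they are separate cultures.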

Additional observations from a re-analysis of the deposited data

How the results depend on the processing

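LGALS9 stayed higher in each of 19 alternatives that tested it, with a log2 fold change from 0.44 to 1.31. It stayed past the threshold in 10 of them, fits with 1 overexpression library included. The number of checkpoint genes called was 0 with total count scaling, with limma on log2(FPKM + 1) or log2(FPKM + 0.1), with the principal mRNA and the longest coding transcript corrections, at an adjusted p under 0.01, with a mean FPKM of at least 5 (where LGALS9 was not tested), and with LGALS9 and its copies summed. On the TPM scale 3 were lower, CD276 (-0.71), PVR (-0.78) and NT5E (-0.73), in a fit whose median over all genes was -0.5. Leaving out 1 library gave 0 to 5 checkpoint genes, and of all genes 650 without control replicate 1, 989 without control replicate 2, 7579 without overexpression replicate 1 and 6413 without replicate 2, against 3915. The number of all genes called was 1932 with the exonic length correction, 721 with the principal mRNA correction, 758 with the longest transcript and 1320 at an adjusted p under 0.01. Higher and lower calls split 2010 to 1905 in the main test, 1251 to 2985 with total count scaling (median over all genes -0.208), 482 to 4585 on the TPM scale, and 1245 to 2608 and 1176 to 2438 with limma (medians -0.169 and -0.208). A replicate block gave 5758 genes and 1 checkpoint gene, LGALS9. The shared numbers are not tied to a batch in the labels, and the deviations of libraries numbered 1 correlated at 0.367 over 12168 genes. USP22, ULBP3 and NT5C2 were lower and past the threshold in each alternative that tested them, and CMTM4 in 19 of 20. At low counts, as for VTCN1 and PDCD1LG2, depth limits what could be seen. The longest transcript, the sum of LGALS9 copies and coding genes alone were added after the data were seen.

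Signs turned in the values that follow, and the cause was not tested. With total count scaling the log2 fold change was -0.059 for IFNGR1, -0.18 for CALR and CLPTM1, -0.043 for KRT5 and -0.13 for ZNF180 and BCAM. On the TPM scale it was -0.26 for NECTIN2, -0.054 for TNFRSF14, -0.082 for HMGB1, -0.35 for IFNGR1 and KRT5, -0.47 for CALR, -0.015 for PNP, -0.058 for HLA-E, -0.097 for IRF1, -0.053 for QPCTL, -0.41 for ZNF180, -0.30 for CEACAM19, -0.28 for BCL3, -0.43 for BCAM and -0.49 for CLPTM1. Without a filter CD47 was 0.040 and ZNF112 0.037, with edgeR's own filter 0.045 and 0.044, and with a mean FPKM of at least 5 CALR was -0.073, BCAM -0.017 and CLPTM1 -0.066. limma on log2(FPKM + 1) gave -0.061 for IFNGR1, -0.17 for CALR, -0.060 for KRT5, -0.090 for ZNF180, -0.0024 for BCL3, -0.14 for BCAM and -0.21 for CLPTM1, and with 0.1 added -0.063, -0.17, -0.060, -0.12, -0.0047, -0.15 and -0.21. CLPTM1 was -0.011 with limma-voom and -0.0080 with the block. The exonic length correction gave 0.35 for CD47, -0.15 for IFNGR1, -0.35 for CALR and -0.071 for BCL3. With the principal mRNA correction CD274 was 0.13, NECTIN2 -0.0079, TNFRSF14 -0.0022, LGALS3 -0.11, SIRPA 0.0043, IFNGR1 -0.092, CALR -0.32, ADK -0.094, PNP -0.075, MICA -0.031, CMTM6 0.040, COL1A1 0.097, ZNF112 0.19, CEACAM19 -0.10, BCL3 -0.058, BCAM -0.025 and CLPTM1 -0.021. With the longest transcript CD274 was 0.069, CD47 0.38, TNFRSF14 -0.12, LGALS3 -0.20, SIRPA 0.039, IFNGR1 -0.040, CALR -0.45, PNP -0.19, ULBP2 -0.096, KRT5 -0.017, COL1A1 0.043, ZNF112 0.12, CEACAM19 -0.097, BCL3 -0.18 and CLPTM1 -0.074.

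Leaving out 1 library at a time, the log2 fold change ranged from -0.31 to 0.14 for CD274, from -0.13 to 0.10 for CD47, from -1.07 to 0.20 for PDCD1LG2, from -0.65 to 0.155 for CMTM6, from -0.17 to 0.45 for KRT5, from -0.16 to 0.56 for BCL3, from -0.27 to 0.38 for BCAM, from -0.42 to 0.39 for CLPTM1, from -0.15 to 0.27 for ZNF180 and from -0.066 to 0.039 for ZNF112.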
